A study of Mus musculus with 2 samples.

Results

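Mir7b, Mir137 and Mir153 are 3 mouse miRNA genes known mainly from neurons and neuroendocrine cells. They were taken as the rows of the count tables whose GENCODE M21 name is one of these symbols, and they make up 3 of the 2202 miRNA genes listed. The symbols were chosen with earlier results of these data known. The tissue was the adrenal gland of 4-day-old females of B6CASTF1/J, first-generation hybrids with C57BL/6J and CAST/EiJ parents, with no treatment or genetic change named in the labels. MicroRNA sequencing gave 2 libraries of 1 group, described as different females but carrying a common donor identifier, so the spread between them is that of 2 animals only as far as the description holds. The labels give no second group, and the results are the levels of the 3 genes, their place in the miRNA pool and the difference between the libraries.

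Inside the steroid-producing adrenal cortex lies the medulla, made of chromaffin cells, which come from the neural crest, release catecholamines and are contacted by preganglionic nerve fibres. A miRNA is cut from a hairpin transcript, loaded into an Argonaute protein and guided to target mRNAs by its seed, the bases at positions 2 to 8 from the 5′ end. The miR-7 family is known from pancreatic islets, pituitary and brain, where the circular RNA Cdr1as binds it. miR-137 is known from neuronal differentiation and synapse function. miR-153 is a brain-enriched miRNA, and together with miR-7 it has been reported to repress alpha-synuclein. These tables hold no mRNA of chromaffin cells or of nerve, so the name "neuronal" rests on this background and not on a marker measured in these samples. In whole tissue, fewer cells of a type and less RNA per cell cannot be told apart.

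The mature sequences are shown because they decide which reads could be counted for each gene. They are from RefSeq (GRCm38.p6, the build of the tables), where all 3 genes were matched, and are written 5′ to 3′ with the seed in capitals. The leading pair is miR-7b-5p and its relative miR-7a-5p, which share the seed GGAAGAC.
miR-7b-5p: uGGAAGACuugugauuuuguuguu
miR-7a-5p: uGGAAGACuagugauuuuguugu
miR-7b-3p: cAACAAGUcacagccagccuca
miR-137-5p: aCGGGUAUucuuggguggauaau
miR-137-3p: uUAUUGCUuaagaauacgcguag
miR-153-5p: gUCAUUUUugugacguugcagcu
miR-153-3p: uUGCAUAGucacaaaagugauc

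Counted from 1 at the 5′ end, miR-7b-5p differs from miR-7a-5p by the substitution A10U and by 1 further base at its 3′ end (24 bases against 23). Position 10 lies outside the seed. It breaks the match between the sequences, so that the longest run of miR-7b-5p found in the hairpin of another gene had 14 bases, in Mir7-1 and Mir7-2. The other mature sequences of the 3 genes shared runs of at most 11 bases with other hairpins. No 18-base run of any of their 6 mature sequences occurred in a GENCODE M21 transcript of another gene, other than the transcript that contains Mir137. The search covered 141767 transcripts, and the rest of the genome was not searched. How many mismatches the alignment allowed, and so whether miR-7a-5p and miR-7b-5p reads with an error could change places, is not given in the sources used here. Of 1679 mature names in the table, miR-7a-5p alone shared the seed of miR-7b-5p, and miR-7a-2-3p alone shared that of miR-7b-3p. None shared a seed with either arm of Mir137 or Mir153.

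The hairpins are shown because reads were counted per hairpin, so the arms were not told apart. Capitals mark the mature arms.
Mir7b: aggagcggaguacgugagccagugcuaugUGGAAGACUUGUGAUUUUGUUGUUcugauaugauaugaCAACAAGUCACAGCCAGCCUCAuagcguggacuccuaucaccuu
Mir137: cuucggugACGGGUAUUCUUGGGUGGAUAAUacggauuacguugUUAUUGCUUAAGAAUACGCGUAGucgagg
Mir153: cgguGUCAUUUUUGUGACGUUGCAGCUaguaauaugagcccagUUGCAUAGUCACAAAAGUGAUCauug

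The 3 genes lie on different chromosomes and in different kinds of annotation (mm10, GENCODE M21). Mir7b (ENSMUSG00000065491.1) lies on the plus strand of chromosome 17 (56242988 to 56243098) and overlaps no other annotated gene. It starts 183 bases beyond the end of the long noncoding RNA gene AC026385.1 on the same strand. Mir137 (ENSMUSG00000065569.2) lies on the plus strand of chromosome 3 (118433857 to 118433929), within an exon of the noncoding gene Gm26871. Mir153 (ENSMUSG00000065538.1) lies on the plus strand of chromosome 12 (117250817 to 117250885), inside an intron of Ptprn2, which encodes phogrin, a membrane protein of dense-core secretory granules. An intron of the antisense gene Gm5441 covers the same place on the opposite strand. The hairpins had 111, 73 and 69 bases and a GC content of 46.8%, 45.2% and 42.0% for Mir7b, Mir137 and Mir153, beside a median of 84 bases and 50% over the 377 detected hairpins. Detected here means 10 or more reads in each library.

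The libraries held 4960537 reads on the annotated strand of miRNA genes in replicate 1 and 4506482 in replicate 2. Mir126a, an endothelial miRNA and the most abundant gene, took 15.7% and 5.47% of them. Levels below are CPM, counts scaled to a total of 1000000 miRNA reads. Since a small RNA read covers its whole molecule, CPM needs no scaling by length to set one miRNA beside another, though ligation and amplification can favour some sequences. Brackets after CPM values hold 95% Wilson intervals, which cover counting error only: without molecular identifiers, PCR copies of a molecule count as separate reads.

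All 3 genes were detected, at levels that spread over more than 2 orders of magnitude. Mir7b was the highest, with 3362 CPM in replicate 1 (3311 to 3413, 16675 reads) and 4213 CPM in replicate 2 (4154 to 4273, 18987 reads). Its mean of 3787 CPM ± 602 (SD, n = 2) placed it 44th of the 2202 genes, above 88.3% of those detected. Mir137 had 729.8 CPM in replicate 1 (706 to 754, 3620 reads) and 695 CPM in replicate 2 (671 to 720, 3131 reads). It ranked 105th by its mean of 712 CPM ± 24.7 (SD, n = 2). Mir153 was present at a low level, with 24.0 CPM in replicate 1 (20.0 to 28.7, 119 reads) and 11.5 CPM in replicate 2 (8.80 to 15.1, 52 reads). Its mean of 17.8 CPM ± 8.80 (SD, n = 2) gave rank 290, above 23.3% of the detected genes.

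The order Mir7b, Mir137, Mir153 was the same in both libraries, and the values of neighbouring genes in that order did not overlap. Set against the median detected gene at 149.9 CPM, the mean of Mir7b was 25.3-fold and that of Mir137 4.75-fold, whereas Mir153 stood at 0.118 of it. Together the 3 genes took 0.412% of the miRNA reads in replicate 1 (0.406 to 0.417) and 0.492% in replicate 2 (0.486 to 0.498). Mir7b made up 81.7% of their summed reads in replicate 1 and 85.6% in replicate 2. The summed level therefore describes Mir7b for the most part, and Mir153 contributed 0.583% and 0.235% of it.

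**Figure D1:**
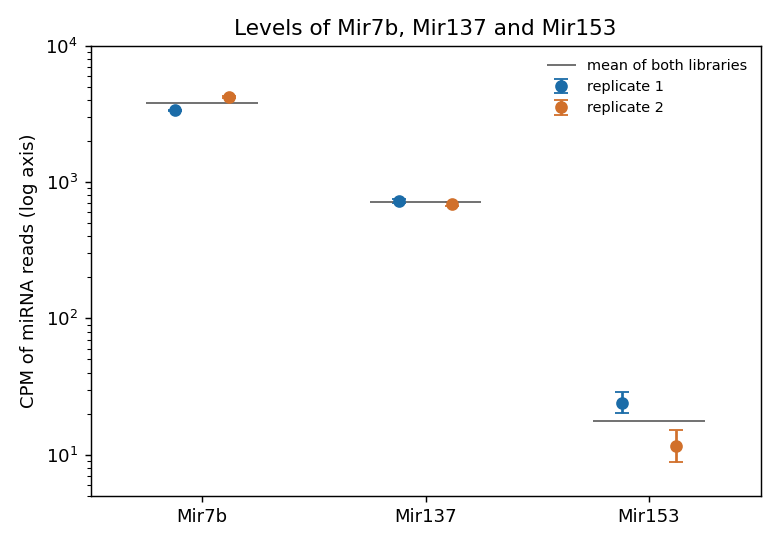
Level in CPM on a log axis for Mir7b, Mir137 and Mir153, with a point for each library, 95% Wilson intervals as bars and the mean of both libraries as a line. The genes are in the same order in replicate 1 and replicate 2, and the points of Mir153 (24.0 and 11.5 CPM) lie furthest apart.

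All the reads of the 3 genes were on the annotated strand. The opposite strand had 0 reads for each of them in each library, which at the 3-read limit allows up to 0.605 CPM in replicate 1 and 0.666 CPM in replicate 2. Reads on either strand gave the same counts for each gene as the annotated strand alone, so no gene overlapping on the opposite strand had taken reads from them. The comparison cannot show this for genes on the same strand, Gm26871 for Mir137 and Ptprn2 for Mir153, which would affect both counts alike. No hairpin of another gene shared an 18-base run with theirs, whereas 96 of the 377 detected hairpins had such a partner. Reads that map to several places were counted for no gene in these tables, so this property bears directly on what a count can show. Whether a CAST/EiJ variant in a hairpin lowered its count was not tested.

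Between the libraries the 3 genes differed in direction and in size. Ratios are of replicate 1 over replicate 2 after TMM scaling, which equalizes the bulk of the detected genes (factors 1.02 and 0.982). The test is an exact two-sided binomial test with Benjamini-Hochberg adjustment over the 377 detected genes. It sets library against library, with no condition involved, and allows for counting error alone. By it, 2 of the 3 genes were called at an adjusted p under 0.05, where 67.1% of all detected genes were. This share shows that most genes differed by more than counting error, and the members' calls are read against it.

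Mir153 had the largest ratio of the 3. It was 2.01-fold higher in replicate 1 (log2 ratio 1.00, 95% exact interval 0.52 to 1.50, adjusted p = 3.07e-05 by the exact binomial test), a direction in which 35.3% of detected genes were called. The interval spans a factor from 1.44 to 2.84, since only 171 reads stand behind it. Of the 377 detected genes, 18.6% had a larger ratio in either direction.

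Mir7b went the other way. It was 1.30-fold higher in replicate 2 (log2 ratio -0.38, interval -0.41 to -0.35, adjusted p = 1.60e-133 by the exact binomial test), a direction in which 31.8% of detected genes were called. The very small p reflects 35662 reads and not a large difference, as 54.9% of the detected genes had a larger ratio.

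Mir137 had no call, with a log2 ratio of 0.02 (interval -0.05 to 0.09, adjusted p = 0.656 by the exact binomial test). Under this scaling, the interval reaches at most a 1.06-fold difference between these libraries, and 96.6% of detected genes had a larger ratio. Its sign depended on the scaling: it was -0.017 with DESeq2 size factors, -0.060 with TMM factors over all genes, and 0.071 with total miRNA reads, with no call in any. With Mir126a left out of both totals, its levels were 865 CPM in replicate 1 and 735 CPM in replicate 2. Mir7b and Mir153 kept their directions under each of these scalings.

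**Figure D2:**
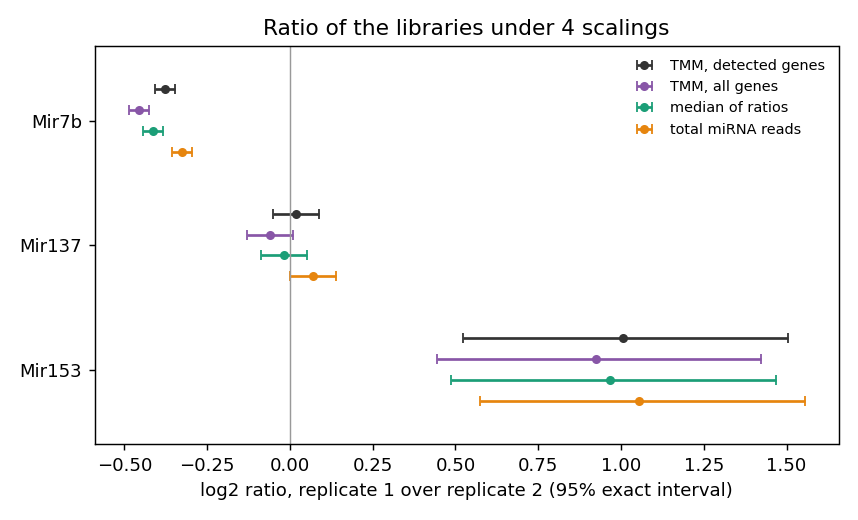
Log2 ratio of replicate 1 over replicate 2 for Mir7b, Mir137 and Mir153 under 4 scalings of library size, with 95% exact intervals as bars and a vertical line at 0. Mir7b lies left of the line and Mir153 right of it under each scaling, while the points of Mir137 lie on both sides, from -0.060 to 0.071.

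With edgeR's exact test, which adds a common dispersion for the spread between the libraries, none of the 3 genes was called. The adjusted p was 1 for each, and the unadjusted p was 0.309 for Mir153, 0.680 for Mir7b and 0.983 for Mir137. That test called 7 of the 377 genes (1.86%), and its dispersion comes from the same 2 libraries (biological coefficient of variation 0.437). The relative SD of the CPM values was 49.6% for Mir153, 15.9% for Mir7b and 3.47% for Mir137, beside a median of 20.7% over detected genes.

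**Figure D3:**
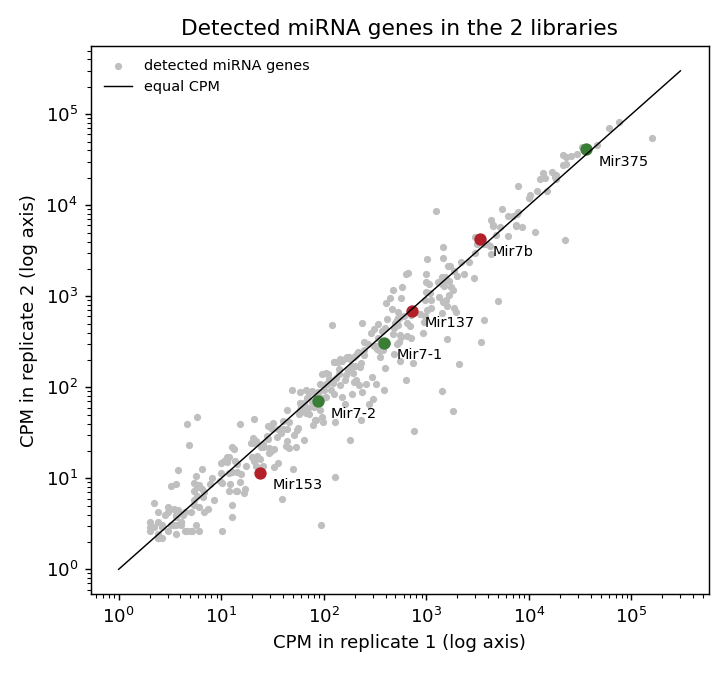
CPM in replicate 1 (horizontal log axis) and in replicate 2 (vertical log axis) for the 377 detected miRNA genes (grey), with Mir7b, Mir137 and Mir153 in red, Mir375, Mir7-1 and Mir7-2 in green, and a line of equal CPM. Mir137 lies close to the line, Mir7b a little above it, on the side of replicate 2, and Mir153 below it, on the side of replicate 1, all within the cloud of other genes.

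Ratios between genes within a library need no scaling factor. Mir7b had 4.61 reads for each read of Mir137 in replicate 1 (95% exact interval 4.44 to 4.78) and 6.06 in replicate 2 (5.84 to 6.30). The intervals do not overlap, so the pair was not in a fixed proportion beyond counting error. Mir137 had 30.4 reads for each read of Mir153 in replicate 1 (25.3 to 36.8) and 60.2 in replicate 2 (45.8 to 80.8). Mir7b had 140.1 reads for each read of Mir153 in replicate 1 (117 to 169) and 365 in replicate 2 (278 to 489).

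Mir375, a miRNA of neuroendocrine and islet cells, was at 36379.5 CPM in replicate 1, against 41025 CPM in replicate 2. For each read of Mir7b there were 10.8 reads of Mir375 in replicate 1 (10.7 to 11.0) and 9.74 in replicate 2 (9.59 to 9.88), a factor of 1.11 between the libraries. For each read of Mir137 there were 49.9 and 59.0 reads of Mir375, and for each read of Mir153 there were 1516 and 3555. Of the 3 genes, Mir7b thus varied least relative to Mir375 and Mir153 most.

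Mir7b belongs to the miR-7 family with Mir7-1 and Mir7-2, which both encode miR-7a-5p. Mir7b had 87.6% of the family's counted reads in replicate 1 (87.1 to 88.0) and 91.7% in replicate 2 (91.4 to 92.1). Mir7-1, in an intron of Hnrnpk, had 389 and 309 CPM in replicates 1 and 2, and Mir7-2, outside any other annotated gene, had 87.7 and 69.9 CPM. The share of Mir7b is not its share of the mature miR-7 pool. The hairpins of Mir7-1 and Mir7-2 share a run of 24 bases that holds the whole of miR-7a-5p (23 bases), so reads of that sequence map to both and were counted for neither. The counts of Mir7-1 and Mir7-2 are therefore lower bounds.

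The counts of Mir7-1 and Mir7-2, which leave out reads of the annotated miR-7a-5p sequence, were called higher in replicate 1, opposite to Mir7b. Mir7-1 had a log2 ratio of 0.28 (adjusted p = 6.35e-08) and Mir7-2 also 0.28 (adjusted p = 0.0164) by the exact binomial test, though Mir7-2 was not called with TMM factors over all genes (0.20, adjusted p = 0.0950). Mir7-1 had 4.44 reads for each read of Mir7-2 in replicate 1 (4.00 to 4.93) and 4.42 in replicate 2 (3.91 to 5.01). Mir7b had 8.64 reads for each read of Mir7-1 in replicate 1 (8.24 to 9.06) and 13.6 in replicate 2 (12.9 to 14.4). Within the family the counts of Mir7-1 and Mir7-2 kept their proportion within counting error, and Mir7b did not keep its proportion to Mir7-1. Reads of miR-7b-5p are counted for Mir7b, so these counts are of unlike products. How miR-7a-5p itself differed between the libraries cannot be read from them.

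Mir137 and Mir153 were set beside 20 other brain-enriched miRNA genes. Of these, 14 were detected, and the hairpins of 14 of the 20 share runs with others. The 6 that share no run were all detected. Their counts can be read in the same way, apart from Mir873a. It had 25 reads in replicate 1 and 19 in replicate 2 on the annotated strand, but 0 in each when reads on either strand were counted. Mir134, a miRNA of dendritic spines encoded in the imprinted Dlk1-Dio3 cluster, had 1504 and 1619 CPM in replicates 1 and 2, above Mir137 in both. The other 5 were far below Mir137. Mir384 had 22.4 and 17.5 CPM, Mir488 had 14.1 and 14.4 CPM, Mir383 had 12.7 and 11.8 CPM, Mir346 had 12.7 and 5.10 CPM, and Mir873a had 5.04 and 4.22 CPM. Mir153, at 24.0 and 11.5 CPM, lay above Mir384 in replicate 1 and below it in replicate 2, and its place among Mir384, Mir488 and Mir383 was within its spread.

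The remaining 14 brain-enriched genes held 522 CPM in replicate 1 and 453 CPM in replicate 2 in all, with 8 detected. The 3 copies of Mir124a, among the most abundant miRNAs of neurons, had 0 reads in replicate 1 and 1 read in replicate 2 together. The 3 copies of Mir9, known from neural progenitors, had at most 6 reads each. Copies of each family share runs of at least 18 bases, so their low counts set no limit to the mature miRNA. They cannot serve as a check on whether neurons were present. Mir138-1 (108 CPM in both libraries) and Mir128-1 (88.5 and 89.6 CPM) were the highest of the 8 by their means.

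Calls among the brain-enriched genes other than Mir137 and Mir153 were split. By the exact binomial test, 4 of the 14 detected genes were higher in replicate 1, 3 were higher in replicate 2 and 7 had no call, where 35.3% and 31.8% of all detected genes were called in these directions. Mir129-2 (log2 ratio 1.60), Mir129-1 (1.20), Mir346 (1.26) and Mir218-1 (1.13) were higher in replicate 1. Mir128-2 (-1.44), Mir218-2 (-0.53) and Mir134 (-0.16) were higher in replicate 2. Their median log2 ratio was 0.03, beside 0.04 over all 377 detected genes. The hairpins of Mir129-2, Mir129-1, Mir218-1, Mir128-2 and Mir218-2 share runs, and Mir218-1 and Mir218-2 went opposite ways. Mir129-2 also had 0 reads in each library when reads on either strand were counted, against 643 and 186 on the annotated strand.

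**Figure D4:**
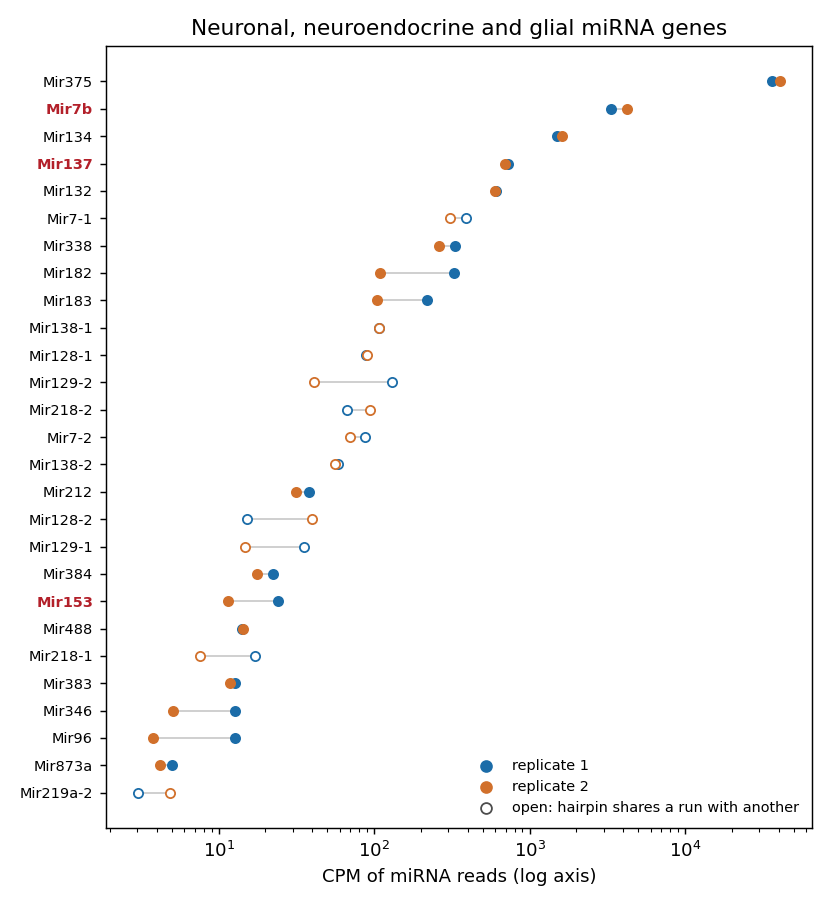
CPM on a log axis in replicate 1 (blue) and replicate 2 (orange) for the detected miRNA genes of the brain-enriched, neuroendocrine, activity-responsive and glial lists, ordered by mean, with Mir7b, Mir137 and Mir153 named in red. Open points mark hairpins that share an 18-base run with another hairpin. Mir7b is second to Mir375, Mir137 lies between Mir134 and Mir132, and Mir153 is among the low genes.

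Other lists give the surroundings of the 3 genes. The neuroendocrine list of 7 genes, which holds Mir7b, took 4.08% of the miRNA reads in replicate 1 and 4.58% in replicate 2, most of it from Mir375. Mir183, Mir96 and Mir182, a cluster known from sensory and neuroendocrine cells, were called higher in replicate 1 with log2 ratios of 1.01, 1.70 and 1.52. Of that list, 5 genes were called higher in replicate 1 and the other two in replicate 2, where 35.3% and 31.8% of all detected genes were called so. Their median log2 ratio was 0.28, beside 0.04 over all 377 detected genes. Mir132, which is induced by CREB in stimulated neurons, had 612 and 603 CPM in replicates 1 and 2, close to Mir137, and its partner Mir212 had 37.9 and 31.3 CPM. Neither had a call, but Mir132 was called higher in replicate 2 with TMM factors over all genes (log2 ratio -0.11, adjusted p = 0.00659 by the exact binomial test). For each read of Mir137 there were 0.838 reads of Mir132 in replicate 1 (0.799 to 0.880) and 0.868 in replicate 2 (0.824 to 0.914), intervals that overlap.

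MiRNAs of glia, the cells that sheathe nerve fibres, were represented mainly by Mir338. Its level was 333 CPM in replicate 1, against 261 CPM in replicate 2, and it was called higher in replicate 1 (log2 ratio 0.30, adjusted p = 7.20e-08 by the exact binomial test). On the annotated strand Mir338 had 1654 reads in replicate 1 and 1175 in replicate 2. It had 0 in each when reads on either strand were counted, so its call has no value under that alternative. The copies of Mir219a had 43 and 15 reads in replicate 1 and 9 and 22 reads in replicate 2, and their hairpins share runs. Counted on either strand, Mir219a-1 had 3 reads in replicate 1 and 2 in replicate 2, and Mir219a-2 had 0 in each. The 3 genes of this list summed to 345 CPM in replicate 1 and 268 CPM in replicate 2.

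MiRNAs of other cell types that dissected tissue can hold differed between the same libraries, some far more than the 3 genes did. Genes named higher below were called by the exact binomial test. By that test 35.3% of all detected genes were called higher in replicate 1 and 31.8% in replicate 2. The 5 epithelial genes of the miR-200 family summed to 4224 CPM in replicate 1 and 192 CPM in replicate 2, with all 5 higher in replicate 1. The kidney-enriched genes (4 genes, 3 detected and all 3 higher in replicate 1) summed to 375 and 146 CPM. The erythroid genes (3 genes, 2 higher in replicate 1 and 1 in replicate 2) summed to 1059 and 287 CPM. The striated muscle genes (4 genes, 3 detected and all 3 higher in replicate 2) summed to 1249 and 8685 CPM. Mir206 alone had 1239 and 8627 CPM of these sums. Mir122, the liver-enriched gene, had 1449 and 2638 CPM. The 3 leukocyte genes summed to 1151 and 1475 CPM, all higher in replicate 2. Of the endothelial pair, Mir126a was higher in replicate 1 and Mir126b, on the opposite strand of the same place, had 20 and 6 reads. When reads on either strand were counted, Mir126a had 11 and 5 reads in replicates 1 and 2. By that count Mir451a and Mir486 of the erythroid genes and Mir142 of the leukocyte genes had 0 in each library. The part of these cell-type differences in the ratios of Mir7b and Mir153 was not tested.

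By level alone, the detected genes nearest to each of the 3 over both libraries were found by Euclidean distance of log2(CPM + 1). With 2 libraries of 1 group this is a likeness of level only. For Mir7b they were Mir674, Mir100 and Mir433, at distances of 0.12 to 0.21. Mir674, the nearest, was at 3209 CPM in replicate 1, against 3930 CPM in replicate 2. For Mir137 they were Mir146, Mir467d and Mir708, at 0.03 to 0.16, with Mir146 at 717 and 683 CPM. The hairpins of these last 3 share runs with others, so their counts are uncertain. For Mir153 they were Mir325, Mir29b-1 and Mir1930, at 0.25 to 0.42, with Mir325 at 22.0 and 13.5 CPM. The hairpin of Mir29b-1 also shares runs with others, so its count is uncertain too.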

How the data were processed

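Small RNA of whole adrenal gland was sequenced in 2 libraries of 1 group. The authors deposited whole-number read counts per miRNA gene, not normalized, in 3 columns, with 4 leading rows that name no gene. Per the file headers, genes were those of GENCODE M21 on mm10. Which aligner and counter were used is not given in the sources used here. The columns have no header and were read from the values as either strand, annotated strand and opposite strand. Of 11704395 reads in replicate 1 and 11288855 in replicate 2, 42.4% and 39.9% were on the annotated strand of miRNA genes, 25.8% and 26.1% were unmapped, 25.9% and 27.8% mapped to several places, and 5.96% and 6.24% lay in no miRNA gene. The leading rows stayed out of library sizes. The tables are not copies of 1 library (chi-square 566135 on 376 degrees of freedom).

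All 2202 identifiers were found in GENCODE M21. Hairpins were compared by 18-base runs on either strand. CPM is over annotated-strand miRNA reads. TMM factors (edgeR 4.0.16, R 4.3.3) were estimated over detected genes, because factors over all genes recovered simulated library sizes less closely. Quasi-likelihood fits had no residual degrees of freedom, so the exact binomial test was used, tested on simulated data. The simulations held counting error and set changes of balanced sign in detected genes, with no other spread between libraries. They therefore cannot show how the test or the factors behave with the spread of this pair. Alternatives were other scalings (DESeq2 1.42.0), read minimums, strand, hairpin sets and edgeR's exact test. Intervals used scipy 1.17.1. Named genes were the 3 members, the genes of 12 lists, seed sharers, the 3 nearest genes in level, host genes and the most abundant gene. The members and lists were chosen with earlier results of these data known.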

Additional observations from a re-analysis of the deposited data

How the results depend on the processing

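Under 4 other library sizes or strand choices, the order Mir7b, Mir137, Mir153 did not change. Scaled to 1000000 reads of the whole library, the means were 1553 for Mir7b, 293 for Mir137, 7.39 for Mir153 and 1854 for their sum, because the total then includes reads outside miRNA genes. With reads on either strand they were 4483 CPM for Mir7b, 849.6 CPM for Mir137 and 5354 CPM for the sum, since reads in overlapping genes of both strands leave that total. Without Mir126a in the totals, Mir137 had a mean of 800.2 CPM. Leaving out each library in turn gave 3362 to 4213 CPM for Mir7b, 695 to 729.8 CPM for Mir137, 11.5 to 24.0 CPM for Mir153 and 4115 to 4920 CPM for the sum.

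The log2 ratio of Mir7b ranged from -0.46 to -0.33 and that of Mir153 from 0.92 to 1.06 over the alternatives. Both lost their calls in edgeR's exact test (log2 ratios -0.38 and 1.00 as before, adjusted p = 1), and kept them in each other alternative run. Mir137 changed sign without a call with DESeq2 size factors (-0.017) and with TMM over all genes (-0.060, chosen after seeing the data). Mir132 changed sign with total miRNA reads (0.021, no call) and gained a call with TMM over all genes (-0.11, adjusted p = 0.00659). The genes called numbered 253 (133 higher in replicate 1, 120 in replicate 2), and 7 in edgeR's exact test (7 and 0, with 25 at an unadjusted p under 0.05). No value exists for Mir153 at a mean of at least 100 reads, which it did not reach. The depth of 52 reads in replicate 2 limits the precision of Mir153. No paired analysis was possible because the series has a single group.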
